A study of Mus musculus with 5 samples.

Results

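Serpins are a family of proteins that share a fold, and most of them inhibit serine proteases. An inhibitory serpin offers the protease an exposed loop as bait, and once the loop is cut the serpin changes shape and traps the protease. The family is divided into lettered clades: hepatocytes secrete many members of clades a, c, d, f and g into the blood, whereas clade b members lack a classical signal peptide and act mostly inside cells. The serpins described here are the genes whose symbol has the form Serpin, a clade letter from a to i and a number, each measured by a probe set annotated to that gene alone. This gave 48 of the 19938 genes on the array with such a probe set, and each of the 48 had exactly 1. They cover 9 clades, with 15 genes in clade a, 24 in clade b, 2 each in clades f and i, and 1 each in clades c, d, e, g and h.

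Liver RNA of 5 male wildtype C57BL/6N mice, 5 to 6 months old, was measured on 1 Affymetrix whole-transcript array per mouse. All 5 carried the same treatment. Streptozotocin, which destroys the insulin-producing cells of the pancreas, was injected at 65 mg/kg on 5 days, and bezafibrate, a lipid-lowering activator of PPAR nuclear receptors, was given in the food for 8 weeks, starting 2 weeks after the injections. The labels give 0.25% and 0.5% bezafibrate without saying which a mouse ate, and an age of 10 to 16 weeks at injection. The study asks about metabolism in diabetic mice given this drug, but no other group was analysed here. The values below therefore show which serpins were measured in doubly treated livers and how far 5 such livers differed, and no effect of either compound. Mice are called by the numbers in their labels, which are names and carry no order.

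Signals are given in log2 units as deposited, in which a step of 1 doubles the signal. A brightness floor was set on each array at the 95th percentile of 1212 probe sets for olfactory and vomeronasal receptors. It lay between 5.58 (mouse 1) and 6.07 (mouse 4). Brightness varies with the probes used, so a gene's level is set against the floor and not against another gene's level. Array medians lay between 6.22 and 6.31, and the brightest value on an array between 14.00 and 14.12. In liver tissue, fewer cells of a type and less RNA per cell cannot be told apart. All 6 hepatocyte markers on the list used here exceeded the floor in all mice, with a summed signal between 15.56 and 15.65 on the log2 scale.

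The RefSeq gene table holds 69 mouse genes that match the naming rule. Of the 21 without a probe set of their own, Serpina1a, Serpina1b, Serpina1e, Serpinb9f and Serpinb9g appear only on probe sets shared with relatives. The other 16 were not analysed here, among them Serpina3k and Serpina3m.

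Promoter sequence shows how close the Serpina1 copies are before their starts of transcription. Transcribed sequence, which the probe sets measure, was not compared between the Serpina1 genes. These genes encode the mouse forms of alpha-1 antitrypsin, an inhibitor of neutrophil elastase. The stretches below come from the RefSeq promoter table for GRCm38.p6. Each holds 110 bases from before the annotated start of transcription, on the minus strand, printed 5′ to 3′. Capitals mark GTTAAT, one arm of the site bound by the hepatocyte factor HNF1, and the stretches are lined up on it.
Serpina1a, chr12:103863625-103863734: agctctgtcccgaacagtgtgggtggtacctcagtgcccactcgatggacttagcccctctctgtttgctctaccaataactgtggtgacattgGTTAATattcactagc
Serpina1b, chr12:103738200-103738309: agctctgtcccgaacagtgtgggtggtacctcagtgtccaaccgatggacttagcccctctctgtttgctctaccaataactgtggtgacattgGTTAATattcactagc
Serpina1c, chr12:103904962-103905071: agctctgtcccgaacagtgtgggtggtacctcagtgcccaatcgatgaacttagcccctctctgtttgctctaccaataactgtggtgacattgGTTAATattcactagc
Serpina1d, chr12:103773634-103773743: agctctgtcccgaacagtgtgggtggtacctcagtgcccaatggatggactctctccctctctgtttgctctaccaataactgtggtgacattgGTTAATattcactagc
Serpina1e, chr12:103956960-103957069: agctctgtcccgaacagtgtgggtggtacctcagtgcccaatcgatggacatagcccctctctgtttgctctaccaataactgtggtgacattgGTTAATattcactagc
Over the 10 pairs, between 93.6% (Serpina1b with Serpina1d) and 98.2% of aligned positions were identical. GTTAAT or its reverse complement ATTAAC was present in the 150 bases before the start of 3 of the 9 hepatocyte-made members with a promoter in the table (Serpina1c, Serpina1d and Serpina7) and of 1 of 32 other members (Serpini2). Counted the same way, over all starts of a gene, 4.34% of 27025 genes held it, and 3.71% of the 32851 single promoters of that length.

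The serpins known as products of hepatocytes were all well above the floor, and most of the rest of the family was not. A list of 17 hepatocyte-made serpins, drawn up from general knowledge, had 12 measured members. All 12 exceeded the floor in all 5 mice, against 60.0% of all genes with a probe set of their own. Of the 36 other members, 5 exceeded it in all mice, 3 in some mice and 28 in none.

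**Figure D1:**
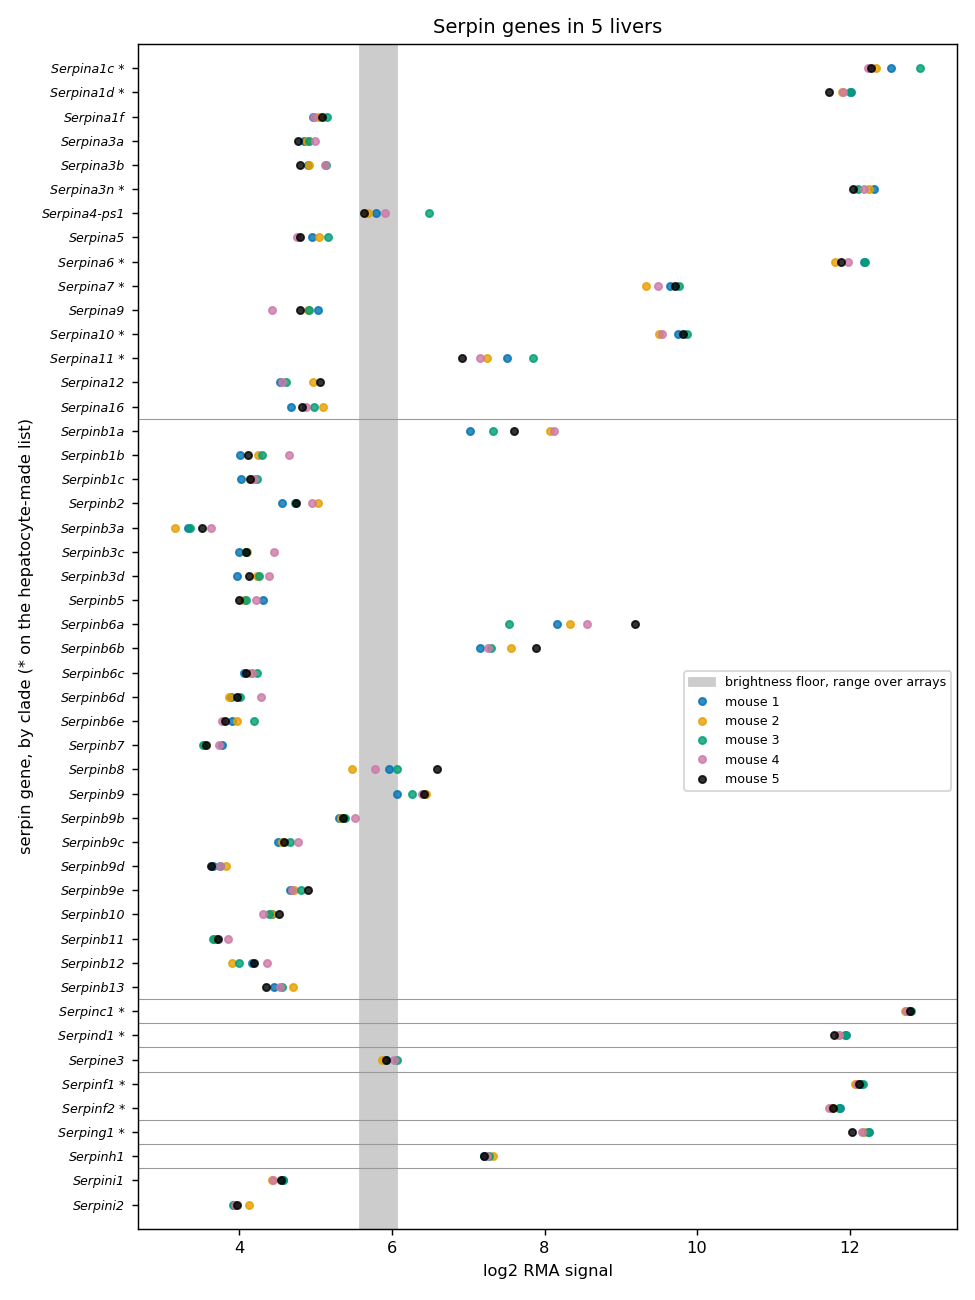
Log2 signal of the 48 serpin genes (rows, ordered by clade, with horizontal lines between clades) in the 5 mice (coloured points). The grey band spans the brightness floors of the arrays, 5.58 to 6.07. Genes with an asterisk are on the hepatocyte-made list, and all 12 lie to the right of the band.

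Apart from Serpina7, which is on the X chromosome, the 15 clade a genes lie on chromosome 12, those above the floor and those below it alike. The 7 clade a genes above the floor were the hepatocyte-made Serpina1c, Serpina1d, Serpina3n, Serpina6, Serpina7, Serpina10 and Serpina11. The 7 below it in all mice were Serpina1f, Serpina3a, Serpina3b, Serpina5, Serpina9, Serpina12 and Serpina16. Serpina5 encodes protein C inhibitor, and Serpina12 encodes vaspin, a serpin first described in adipose tissue. Serpina12 read 4.53, 4.96, 4.62, 4.56 and 5.05 in mice 1 to 5, under the floor throughout. The transcribed pseudogene Serpina4-ps1 exceeded the floor in 2 mice, with 5.80, 5.68, 6.49, 5.91 and 5.63.

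Most clade b genes were below the floor on both chromosomes that hold the clade. Of the 11 genes on chromosome 1, which include Serpinb5 (maspin) and the squamous cell antigen genes Serpinb3a, Serpinb3c and Serpinb3d, none exceeded the floor in all mice, and 10 exceeded it in none. The exception was Serpinb8, above the floor in 3 mice, with 5.96, 5.47, 6.07, 5.78 and 6.59 in mice 1 to 5. Of the 13 genes on chromosome 13, Serpinb1a, Serpinb6a, Serpinb6b and Serpinb9 were above the floor in all mice and the other 9 in none. The 3 probe sets shared by Serpinb9d, Serpinb9e, Serpinb9f and Serpinb9g were also below the floor in all mice.

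The single members of clades c, d, g and h and both of clade f exceeded the floor in all mice. Serpine3 of clade e stayed close to it, with 5.93, 5.87, 6.06, 6.02 and 5.92, above the floor in 4 mice. Both clade i genes were below it in all mice. Serpini1 (neuroserpin, an inhibitor of tissue plasminogen activator in neurons) read 4.57, 4.42, 4.57, 4.44 and 4.55.

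Antithrombin, encoded by Serpinc1, which inhibits thrombin and factor Xa, had the smallest SD of the 17 serpins above the floor in all mice. It read 12.78, 12.72, 12.80, 12.74 and 12.80 in mice 1 to 5, a mean of 12.77 ± 0.03 (SD, n = 5) and a 1.06-fold span from the lowest mouse to the highest. Serpinf1, which encodes the non-inhibitory pigment epithelium-derived factor, read 12.14, 12.07, 12.18, 12.09 and 12.12 (12.12 ± 0.04). Serpinh1, a collagen chaperone of the endoplasmic reticulum that inhibits no protease and is made mainly by collagen-producing cells, read 7.21, 7.32, 7.27, 7.24 and 7.20 (7.25 ± 0.05), and its SD was 0.03 without mouse 2. In each of these 3 genes the spread was below that expected at its level.

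The remaining plasma inhibitors outside clade a were nearly as even. Serpinf2 encodes alpha-2 antiplasmin, the main inhibitor of plasmin, and read 11.88, 11.77, 11.87, 11.73 and 11.78 (11.81 ± 0.06). Serpind1, which encodes heparin cofactor II, a thrombin inhibitor, read 11.96, 11.86, 11.95, 11.86 and 11.80 (11.88 ± 0.07). C1 inhibitor, encoded by Serping1, restrains the first complement component and plasma kallikrein. It read 12.26, 12.19, 12.24, 12.16 and 12.03 (12.18 ± 0.09), lowest in mouse 5, without which its SD was 0.05.

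Clade a plasma serpins differed more between mice. Serpina1c read 12.55, 12.35, 12.93, 12.24 and 12.28 in mice 1 to 5 (12.47 ± 0.28, a 1.61-fold span), with mouse 3 highest. Its SD was 0.14 without mouse 3. Serpina11, a secreted serpin, read 7.51, 7.25, 7.85, 7.15 and 6.92 (7.34 ± 0.36), a 1.90-fold span with mouse 3 again highest and mouse 5 lowest.

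Serpina6 encodes corticosteroid-binding globulin, which carries glucocorticoids in blood and inhibits no protease. It read 12.19, 11.81, 12.20, 11.97 and 11.88 (12.01 ± 0.18), with mice 1 and 3 close together above the others. Serpina7, the thyroxine-binding globulin gene, read 9.65, 9.33, 9.76, 9.48 and 9.72 (9.59 ± 0.18). Serpina10 encodes an inhibitor of factor Xa that works with protein Z, and read 9.75, 9.50, 9.87, 9.53 and 9.81 (9.69 ± 0.17). In both of these genes mice 2 and 4 lay below the other 3.

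Serpina3n, a mouse relative of human alpha-1 antichymotrypsin and a known gene of the acute-phase response, read 12.32, 12.25, 12.12, 12.19 and 12.05 (12.18 ± 0.11). Mouse 1 was highest and mouse 5 lowest. In the same livers Saa2, encoding serum amyloid A2, had an SD of 1.35 and Lcn2, encoding lipocalin 2, of 1.27, and both passed the spread test described below (limma adjusted p = 0.00519 and 0.00352). Mouse 1 was highest in both, and without it the SD of Saa2 was 0.58 (limma adjusted p = 0.118). Other acute-phase genes spread less than Serpina3n, with SDs of 0.07 for Orm1, 0.04 for Lbp and 0.02 for Cp. The median SD over the tested genes of the acute-phase list described below was 0.19. No difference in spread between Serpina3n and any of these genes was tested.

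The 4 probe sets of the Serpina1 copies did not move alike. Serpina1d read 12.02, 11.90, 12.001, 11.91 and 11.73 (11.91 ± 0.11), lowest in mouse 5, without which its SD was 0.06. The signal of Serpina1c minus that of Serpina1d was 0.53, 0.45, 0.92, 0.33 and 0.54, largest in mouse 3. The 2 probe sets shared by all 5 copies read 12.62, 12.48, 12.81, 12.75 and 12.62 for the first (SD 0.13) and 13.38, 13.25, 13.42, 13.36 and 13.31 for the second (SD 0.06). Both were highest in mouse 3 and lowest in mouse 2. Whether a probe set named for 1 copy also takes up signal from the others was not tested. The values of Serpina1c and Serpina1d are therefore uncertain as values of single copies.

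The widest spreads of the family were in clade b. Serpinb6a, which encodes an intracellular inhibitor of trypsin-like proteases and cathepsin G, read 8.16, 8.34, 7.54, 8.56 and 9.18 in mice 1 to 5 (8.35 ± 0.60, SD, n = 5). Mouse 5 was highest and mouse 3 lowest, a 3.13-fold span. Without mouse 3 the SD was 0.45, and without mouse 5 it was 0.44.

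Serpinb1a encodes an inhibitor of neutrophil elastase, cathepsin G and proteinase 3. It read 7.02, 8.07, 7.33, 8.12 and 7.59 (7.63 ± 0.48, a 2.15-fold span). Mice 2 and 4 lay above the others, and mouse 1 lowest. Serpinb6b, a close relative of Serpinb6a, read 7.16, 7.56, 7.30, 7.27 and 7.89 (7.43 ± 0.29), with mouse 5 highest as for Serpinb6a. Without mouse 5 its SD was 0.17. Serpinb9, which protects cells from granzyme B, read 6.06, 6.45, 6.27, 6.39 and 6.42 (6.32 ± 0.16), lowest in mouse 1, without which its SD was 0.08. Serpinb8, near the floor, had an SD of 0.41, and of 0.26 without mouse 5.

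**Figure D2:**
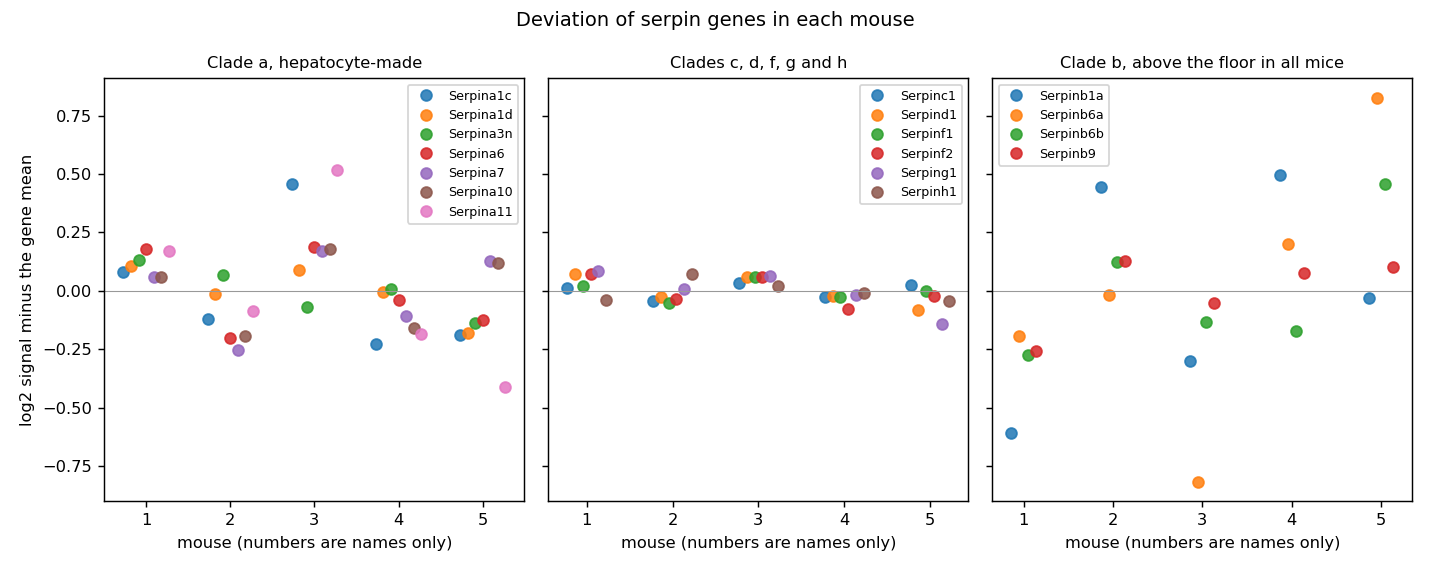
Log2 signal minus the gene's mean over the 5 mice (vertical axis) by mouse (horizontal axis, numbers are names), for the 7 hepatocyte-made genes of clade a, the 6 genes of clades c, d, f, g and h, and the 4 clade b genes above the floor in all mice. Within a panel, points of one colour are one gene. The middle panel stays close to 0, while Serpinb6a runs from -0.82 in mouse 3 to 0.83 in mouse 5.

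Whether a spread was larger than usual for the level of the gene was tested with limma, on 14589 probe sets whose mean exceeded the floor of the means, 5.76. The variance between the 5 mice was divided by the variance typical of probe sets of similar brightness. Over all probe sets, 52 (0.356%) passed at a Benjamini-Hochberg adjusted p of 0.05. Of the 48 serpins 20 were tested, and 0 passed. In simulated data the test recovered 14% of probe sets given 4 times the expected SD, and 65% of those given 8 times. A serpin that did not pass can therefore still have a spread above that expected. At an unadjusted p under 0.05 the test marked 6 of the 17 serpins above the floor in all mice (Serpina1c, Serpina6, Serpina11, Serpinb1a, Serpinb6a and Serpinb6b), beside 6.34% of all tested probe sets and 6.38% of tested genes. Serpinb8 and Serpina4-ps1 were also marked, but with values under the floor in some mice. Of these 8, 3 were hepatocyte-made. Without mouse 3 the test marked 4 serpins, of which 0 were hepatocyte-made, and with probe sets of any number of symbols it also marked 4. The largest ratio of observed to expected variance was that of Serpinb6a, 24.2 (limma adjusted p = 0.0953), followed by Serpinb1a with 14.0 (limma adjusted p = 0.217) and Serpina1c with 12.8 (limma adjusted p = 0.246). Over the alternative settings, the limma adjusted p of Serpinb6a lay between 0.0257, with each array centred on its median, and 0.476, and that first setting was the 1 setting in which a serpin passed.

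Clades and sources differed in the size of the spread. The median SD was 0.11 over the 12 hepatocyte-made members and 0.32 over the 8 other tested members, beside 0.12 over all 13339 tested genes. The 8 include Serpinb8, Serpina4-ps1 and Serpine3, which were not above the floor in all mice. Serpina4-ps1 was highest in mouse 3, and without that mouse its mean was too low for the test. Within the hepatocyte-made list, the 7 members of clade a had a median SD of 0.18 and a median ratio of observed to expected variance of 2.64, and the 5 members of clades c, d, f and g had 0.06 and 0.56. The median ratio, which allows for the level of the gene, was 1.74 over all 12 hepatocyte-made members and 6.39 over the 8 other tested members. Over all tested genes it was 0.93. The ratio was above 1 in 8 of the 12 and in 6 of the 8 others, beside 47.0% of tested genes. The median SD over the 5 tested clade b genes was 0.41, and 0.26 without mouse 5. Both values are those of Serpinb8, above the floor in 3 mice. Over the 4 clade b genes above the floor in all mice the median SD was 0.39, and 0.30 without mouse 5. These are descriptions of few genes, which are not replicates. Leaving out mouse 5 lowered the median SD of the 8 other tested members to 0.22. By Dixon's ratio, which sets the gap of the most distant mouse against the whole range, 0 of the 20 tested serpins had 1 mouse apart, beside 5.65% of tested genes.

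**Figure D3:**
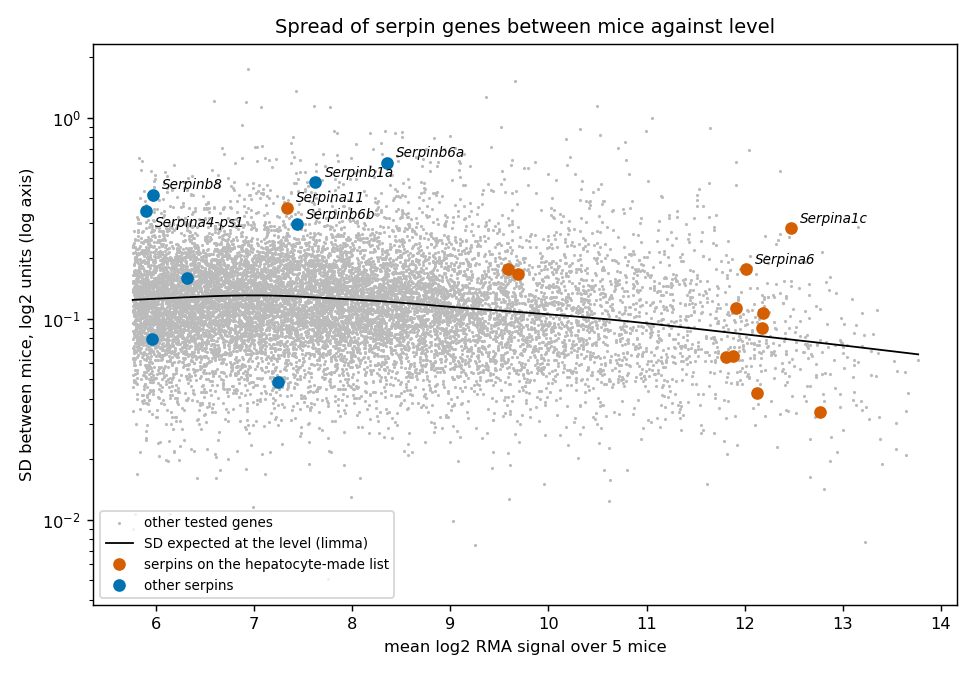
SD between the 5 mice (vertical log axis, log2 units) against the mean log2 signal (horizontal axis) for 13339 tested genes (grey) and the 20 tested serpins (orange for the hepatocyte-made list, blue for the others). The line is the SD that limma expects at each level. Serpins with an unadjusted p under 0.05 are named, and Serpinb6a, with an SD of 0.60, is the highest of them.

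The hepatocyte-made serpins and the clade b genes differed in which mouse was highest. Of the 12 hepatocyte-made members, 5 were highest in mouse 1 and 7 in mouse 3, and 0 in mouse 2, 4 or 5. Over all tested genes 23.9% were highest in mouse 1 and 22.9% in mouse 3. The lowest of the 12 was in mouse 2 for 5 genes, in mouse 4 for 2 and in mouse 5 for 5, where all tested genes had 11.4%, 36.5% and 21.6%. With each array centred on its median these counts were 2, 5 and 5. Most of these differences were small, since the mean deviation of the list was 0.09, -0.08, 0.15, -0.07 and -0.09 in mice 1 to 5. Of the 4 clade b genes above the floor in all mice, 1 was highest in mouse 2, 1 in mouse 4 and 2 in mouse 5, where 25.5%, 8.47% and 19.2% of all tested genes were highest. With median centring the counts were 2 in mouse 2, 0 in mouse 4 and 2 in mouse 5. The lowest was in mouse 1 for 3 of them and in mouse 3 for 1, beside 11.6% and 18.9% of all tested genes. With quantile normalization, or with each array centred on its median, all 12 hepatocyte-made members were still highest in mouse 1 (6 and 8) or mouse 3 (6 and 4). Highest values in mouse 1 or 3 were not particular to serpins. In the values as deposited, the 8 coagulation and fibrinolysis proteases above the floor in all mice, described below, were also highest there. So were the 4 complement proteases described below. Other plasma protease inhibitors were mixed, and Ahsg and Itih2 were highest in mouse 5.

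Leukocytes also express clade b serpins, so markers of other cells are given beside these extremes. The 7 Kupffer cell and macrophage markers, 6 of them above the floor in all mice, deviated by 0.31, -0.15, -0.06, -0.19 and 0.09 on average, highest in mouse 1, where Serpinb1a, Serpinb6b and Serpinb9 were lowest. Their summed signal ran from 11.65 to 12.09. Of the 5 neutrophil markers, S100a8, Ly6g, Mpo and Retnlg stayed under the floor throughout, and the list deviated by -0.04, -0.07, -0.05, 0.05 and 0.11, with a summed signal from 7.58 to 7.77. Among the 5 T and NK cell markers 3 were below it in all mice (Cd3d, Gzma and Klrb1c). They deviated by -0.05, 0.05, 0.01, -0.10 and 0.09, with sums of 7.79 to 7.96. Both lists were highest in mouse 5, as Serpinb6a and Serpinb6b were, although most of their markers were not above the floor. Bile duct markers, 3 of 4 measured above the floor in all mice, deviated by -0.04, 0.14, -0.15, -0.05 and 0.10, low in mouse 3 and high in mice 2 and 5. The part of cell mixture in the spread of the clade b genes was not tested. Beside the hepatocyte-made list, high in mice 1 and 3, the 2 measured erythroid markers deviated by 0.45, -0.13, 0.32, -0.33 and -0.30, and the 4 skeletal muscle markers by 0.44, -0.25, -0.08, 0.02 and -0.13. The mean deviation of the 6 hepatocyte markers was at most 0.04 in any mouse. The part of these cells in the values of the hepatocyte-made list was not tested either.

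The proteases that plasma serpins restrain had their own spread. Of 11 proteases of coagulation and fibrinolysis on a list, 10 were measured and 8 exceeded the floor in all mice. In the spread test 0 of 9 tested passed, with 2 at an unadjusted limma p under 0.05, beside 6.38% of all tested genes. The list's 8 genes deviated by 0.09, 0.05, 0.16, -0.02 and -0.28 on average. F7, the protease that starts coagulation with tissue factor, read 8.65, 8.63, 8.39, 8.20 and 7.62 (8.30 ± 0.42, limma adjusted p = 0.266). F11, encoding factor XI, read 7.37, 7.49, 7.81, 7.32 and 6.80 (7.36 ± 0.37), and Proc, encoding the anticoagulant protein C, had an SD of 0.19. All 3 were lowest in mouse 5, without which their SDs were 0.21, 0.22 and 0.05.

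The 4 complement proteases that C1 inhibitor or its relatives can restrain all exceeded the floor. Of these, 0 passed, with 1 at an unadjusted limma p under 0.05, beside 6.38% of all tested genes. C1s1 read 9.23, 8.98, 9.56, 8.77 and 8.85 (9.08 ± 0.32, limma adjusted p = 0.446), C1ra had an SD of 0.22 and Masp1 of 0.14, and all 3 were highest in mouse 3. Without mouse 3 the SD of C1s1 was 0.20 and that of C1ra 0.14. The mean deviations of this list were 0.11, -0.02, 0.24, -0.14 and -0.19.

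Of 26 other protease inhibitors of plasma and tissue, all measured, 24 exceeded the floor in all mice. Of these 24, 0 passed and 5 had an unadjusted p under 0.05, beside 6.38% of all tested genes. The widest of the 24 was Itih4, encoding a heavy chain of the inter-alpha-trypsin inhibitor family. It read 11.68, 10.55, 11.27, 10.56 and 11.02 (11.02 ± 0.48, limma adjusted p = 0.0863), with mouse 1 highest. Tfpi2 (SD 0.27) and Slpi (SD 0.25) followed among the 24, and without mouse 5 their SDs were 0.13 and 0.08. Their list deviated by 0.07, -0.02, 0.04, -0.04 and -0.04 on average.

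Growth hormone, acting through STAT5, sets the level of several liver genes, some of them male-biased. A list of 12 such growth hormone responsive genes had 10 measured, 9 above the floor in all mice. Mup3 (SD 0.82, limma adjusted p = 0.0150) and Elovl3 (SD 0.75, limma adjusted p = 0.0203) passed, and Socs2 had an SD of 0.56. In all, 5 of 9 tested had an unadjusted limma p under 0.05, beside 6.38% of all tested genes. Of the 9, 2 passed, beside 38 of the 13339 tested genes and 0.356% of all tested probe sets. The SDs of Mup3, Elovl3 and Socs2 fell with the most distant mouse left out, which lowers any SD. Without mouse 3 that of Mup3 was 0.40 (limma adjusted p = 0.299). Without mouse 5 that of Elovl3 was 0.39 (limma adjusted p = 0.0671) and that of Socs2 0.21. The list deviated by 0.12, -0.01, 0.39, -0.10 and -0.41 in mice 1 to 5, high in mouse 3 and low in mouse 5 as Serpina11 was. Of 22 measured acute-phase genes 20 exceeded the floor in all mice. Of 21 tested, Saa2, Lcn2, Orm2 and Orm3 passed, beside 38 of the 13339 tested genes and 0.356% of all tested probe sets. An unadjusted limma p under 0.05 was found in 11 of the 21, beside 6.38% of all tested genes. Without mouse 3, Orm2 (SD 0.36, limma adjusted p = 0.297) and Orm3 (SD 0.33, limma adjusted p = 0.602) did not pass. Without mouse 4, 0 probe sets passed on the whole array, these genes included. That list deviated by 0.29, -0.03, -0.13, -0.17 and 0.04. Both lists were chosen with earlier results of these data known, so their shares beside the background are not independent results. No relation between these lists and the serpins was tested, since 5 mice are too few.

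**Figure D4:**
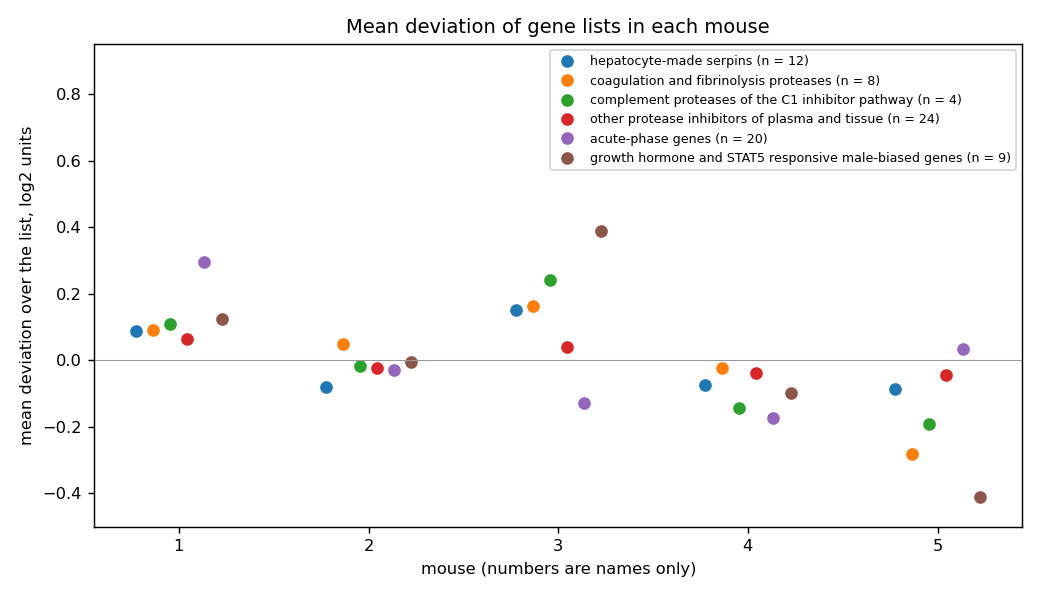
Mean deviation from the gene means (vertical axis, log2 units) in each mouse (horizontal axis, numbers are names) over the genes of 6 lists above the floor in all mice, with the number of genes in the key. Hepatocyte-made serpins lie between -0.09 and 0.15, and the growth hormone list runs from -0.41 in mouse 5 to 0.39 in mouse 3. Itih3 and Itih4 belong to both the acute-phase list and the list of other inhibitors.

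Promoters of the clade a and clade b members with the largest SD are shown for TTCNNNGAA, the letters bound by STAT factors. The motif was chosen because the growth hormone list spread widely in these livers. By the ratio of observed to expected variance, Serpina1c was the widest of clade a (12.8, against 7.55 for Serpina11). The 150 bases before the annotated start of each gene follow, on the minus strand, from the same RefSeq table, with the match in capitals.
Serpina11, chr12:103989958-103990107: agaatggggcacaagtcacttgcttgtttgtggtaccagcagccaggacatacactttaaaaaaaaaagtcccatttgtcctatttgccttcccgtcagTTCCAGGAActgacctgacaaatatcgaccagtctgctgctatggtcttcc
Serpinb6a, chr13:34002795-34002944: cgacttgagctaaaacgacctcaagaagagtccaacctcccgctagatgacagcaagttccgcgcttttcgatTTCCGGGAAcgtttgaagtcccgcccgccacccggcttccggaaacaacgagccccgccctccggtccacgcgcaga
The match starts 51 bases before the start of Serpina11 and 77 before that of Serpinb6a. The table holds 2 starts for each gene, and both of Serpina11 but 1 of Serpinb6a have a match. TTCNNNGAA, which reads the same on both strands, was present in 4 of the 41 members with a promoter in the table (also Serpina1f and Serpinb2, both below the floor) at any of their starts. It was present in 4.77% of genes so counted and in 4.09% of single promoters of this length. Serpina1c, Serpinb6b and Serpinb8, also marked at an unadjusted limma p under 0.05, had a promoter in the table and no match. No relation of the motif to spread was tested. Serpina11 was highest and Serpinb6a lowest in mouse 3. A match is a run of letters, and binding was not measured.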

How the data were processed

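RNA from 5 livers was measured on 1 array per mouse. The authors deposited 1 log2 value per probe set for each mouse. These came from RMA and Affymetrix Expression Console 1.2, per the submitters' processing notes, with settings and genome build not given in the sources used here. RMA corrects background, aligns the arrays and summarises probes, which compresses differences near the background. Of 35556 probe sets, the platform annotation gave 1 symbol to 21789. Where a gene had several, the brightest stood for it, which touched no serpin.

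Limma 3.58.1 in R 4.3.3 fitted an intercept to all 14589 probe sets with 1 symbol above the floor. The variance on 4 degrees of freedom was set against the level-dependent variance of a robust fit (prior degrees of freedom 6.21) by an upper-tail F test with Benjamini-Hochberg adjustment. Whether spread between mice is technical was not measured. Arrays carry no molecule counts, so their number limits precision. The script was tested on simulated data. Python 3.11.15 and pandas 2.3.3 were used.

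Values in every mouse were given for serpins with an unadjusted p under 0.05, the 8 largest and 4 smallest SDs above the floor, and a set of well-known members. From other lists, up to 3 of the widest genes and each gene that passed were named. Members and lists were chosen with earlier results of these data known.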

Additional observations from a re-analysis of the deposited data

How the results depend on the processing

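Results were recomputed under 15 alternative settings. Of 279 recomputed SDs of named serpins that had a limma test, 278 stayed on their side of the limma threshold, and Serpinb6a passed with each array centred on its median. Another 36 had no test in the alternative or in the reported setting, since the gene was under the floor. The number of serpins that passed was 0 except in that setting, where it was 1. The number of probe sets that passed was 142 in that setting, 18 with the floor at the 99th percentile, 24 when the expected variance ignored the level, 18 when it was estimated without the robust step, 29 with probe sets above the floor on all arrays only, and 0 when limma tested probe sets with any number of symbols or none, of which 1385 had an unadjusted p under 0.05. Leaving out each mouse in turn gave 0 (without mouse 4, with 864 at an unadjusted p under 0.05 in limma) to 69 (without mouse 1), with 34 without mouse 2 and 30 without mouse 3. The median SD of the other tested serpins was 0.217 to 0.360 with a mouse left out, lowest without mouse 5. Without mouse 3 Serpina4-ps1 was not among them. The counts by highest mouse were chosen after seeing the data. The cause of these changes was not tested. Serpinb8, Serpinb9, Serpina4-ps1 and Serpine3 lie near the floor, where differences are compressed. No paired analysis was possible because there is 1 group.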

Other observations

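Agt, which encodes angiotensinogen, is a serpin under another symbol and a product of hepatocytes. It read 12.27, 12.27, 12.09, 12.24 and 12.39 in mice 1 to 5 (12.25 ± 0.11, SD, n = 5), lowest in mouse 3, without which its SD was 0.07. In that mouse 7 of the 12 hepatocyte-made serpins were highest.

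Genes that handle misfolded secreted proteins, a route by which hepatocytes dispose of faulty alpha-1 antitrypsin, are described by a list of 14. All 14 exceeded the floor in all mice, 0 passed the spread test of limma (0 at an unadjusted p under 0.05, beside 6.38% of all tested genes), and the widest were Edem2 (SD 0.19), Hspa5 (0.12) and Sel1l (0.12). Without mouse 5 the SD of Edem2 was 0.12, and without mouse 4 that of Hspa5 was 0.07. All 7 measured clearance receptors and cofactors exceeded the floor in all mice. Of these, 0 passed, with 1 at an unadjusted limma p under 0.05, beside 6.38% of all tested genes. Sort1, encoding the sorting receptor sortilin, read 8.56, 8.53, 8.97, 8.34 and 8.10 (SD 0.32, and 0.21 without mouse 3), highest in mouse 3 and lowest in mouse 5. Vldlr had an SD of 0.19 and Lrp1, the receptor that clears complexes of serpins with proteases, of 0.14 (0.09 without mouse 5). A list of 10 leukocyte and lysosomal genes held proteases that serpins can inhibit, and Mpo, which encodes a peroxidase. Of the 10, 4 exceeded the floor in all mice and 4, Mpo included, in none. In limma 0 of 5 tested passed (0 at an unadjusted p under 0.05, beside 6.38% of all tested genes). The widest of the 4 above the floor were Ctss (SD 0.16, and 0.08 without mouse 1), Elane (0.14) and Ctsb (0.06).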
